A study of Picea abies with 40 samples.

Results

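The genes described here had their highest level in zone 3, the third segment from the tip of a Norway spruce (Picea abies) seedling root, and were also raised in stele 3, a part of the central cylinder cut out with a laser. Levels are in CPM, the count of a gene scaled so that every library has the same total. The members were chosen by their mean CPM in the 4 zones, stele 3, ground tissue and the QC area. A member had at least 5 CPM in zone 3 and at least 2 times the mean of each other zone. It also had at least 5 CPM in stele 3 and at least 2 times the mean of the QC area and of ground tissue. Of 70736 genes in both tables, 246 met the zone limits, 3649 met the stele limits, and 138 met both and are the members. The members were ranked by log2 of zone 3 plus 1 CPM over the highest other zone plus 1 CPM.

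Seedlings were grown on plates to about 2 days after germination, and the labels name no treatment and no genotype. Root segments were cut in order from the tip as zones 1 to 4, with 5 libraries each, 3 segments being 1 mm long and 1 being 2 mm long. Areas cut out of tissue sections by laser (laser capture microdissection) gave steles 1, 2 and 3, ground tissue and the QC area, with 4 libraries each. The design text places the captured steles in the elongation and differentiation zones. It does not say whether stele 3 lies at the height of zone 3. Descriptions of ground tissue and QC area libraries carry the number 1, as those of stele 1 do, and those of stele 3 carry 3. Stele 3 may thus differ from ground tissue and the QC area in place along the root as well as in tissue. In that comparison the 2 cannot be told apart. Library totals lay between 3.53 and 7.25 M counts for zones and between 4.94 and 12.0 M for captured regions. The labels do not say whether libraries of a group came from separate seedlings, so p-values measure the spread between these libraries, which may be technical.

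In a root tip, cells divide near the apex, lengthen farther back and then take on their final form. The stele is the inner cylinder with xylem, which conducts water, phloem, which conducts sugars, and the pericycle around them. Ground tissue, the cortex and endodermis, lies between the stele and the epidermis. A zone segment holds all of these tissues, whereas a captured stele library holds mainly the cylinder. The files pair no gene ID with a gene name, so genes are given by ID, markers of cell types were not applied, and the captured identities rest on the labels alone.

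The 138 members together took 0.258 ± 0.0349% of the counts in zone 1, 1.20 ± 0.222% in zone 2, 3.38 ± 0.359% in zone 3 and 1.07 ± 0.263% in zone 4 (SD, n = 5 libraries each). In the captured table they took 0.388 ± 0.182% in stele 1, 1.57 ± 0.456% in stele 2, 2.96 ± 0.210% in stele 3, 0.272 ± 0.0737% in ground tissue and 0.206 ± 0.0537% in the QC area (SD, n = 4 each). These values chose the members and are a description. Steles 1 and 2 are the exception, since the rule did not read them, and stele 2 lay above stele 1. Stele 2 also lay below stele 3, but the rule asked for a high stele 3, so that side is a description too. The stele 1 mean was above both the ground tissue and the QC area mean in 81 of the 138 members. No share over all genes stands beside this count, so nothing is read from it. In bulk samples fewer cells of a type and less RNA per cell cannot be told apart.

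**Figure D1:**
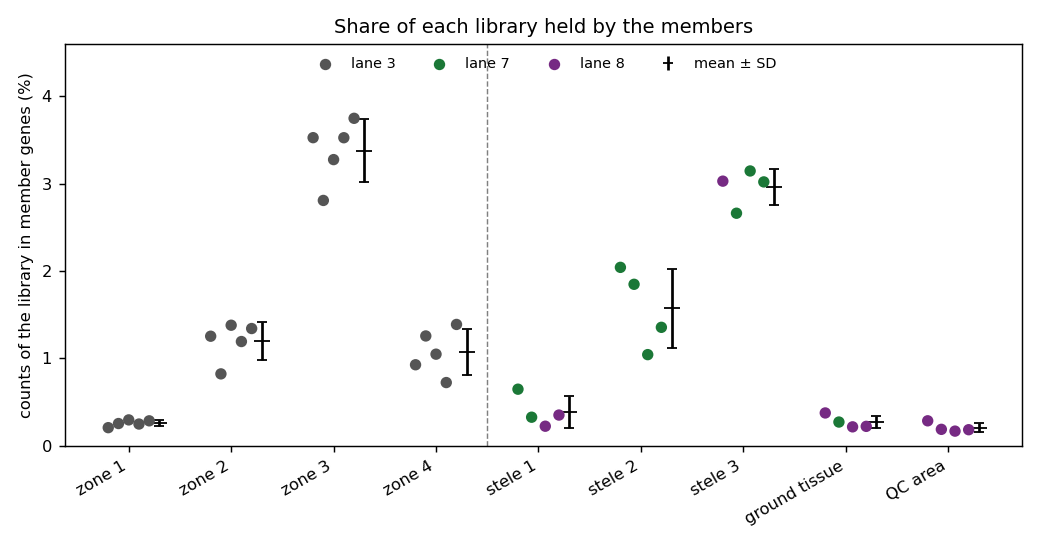
Percent of the counts of each library that fell in the 138 members (vertical axis), by group; points are libraries coloured by sequencing lane, and the bar beside them is the mean with its SD. The zone 3 libraries hold 2.81 to 3.75%, the stele 3 libraries 2.66 to 3.15%, and the 4 stele 2 libraries 1.04 to 2.04%, all above the stele 1 libraries at 0.224 to 0.648%.

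Lane and group were tied in the captured table. All stele 2 libraries and stele 3 replicates 2 to 4 came from lane 7, all QC area libraries and stele 3 replicate 1 from lane 8. The share in the lane 8 stele 3 library was 3.03%, against 2.66 to 3.15% in the lane 7 stele 3 libraries. Within lane 8 it stood against 0.168 to 0.286% in the QC area. Within lane 7 the stele 3 libraries stood against 0.272% in ground tissue replicate 2. The rule asked for stele 3 above the QC area and ground tissue, so nothing is read from these gaps. The share in the single lane 8 stele 3 library lay within the range of the lane 7 ones, and the part of lane was not tested.

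A few members carried much of this total. The 5 highest took 32.0% of the summed zone 3 level and the 11 highest took over 50% of it, and the 8 highest did so in stele 3. Of the 138, 58 reached 100 CPM in zone 3, 9 reached 1000 CPM, and 17 stayed under 10 CPM. Median levels over the members were 3.57 CPM in zone 1, 19.5 in zone 2, 61.5 in zone 3 and 18.0 in zone 4. In the captured table the medians were 3.36 CPM in stele 1, 22.0 in stele 2, 47.9 in stele 3, 1.18 in ground tissue and 0.830 in the QC area. These are levels of reads per library, not per gene length.

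**Figure D2:**
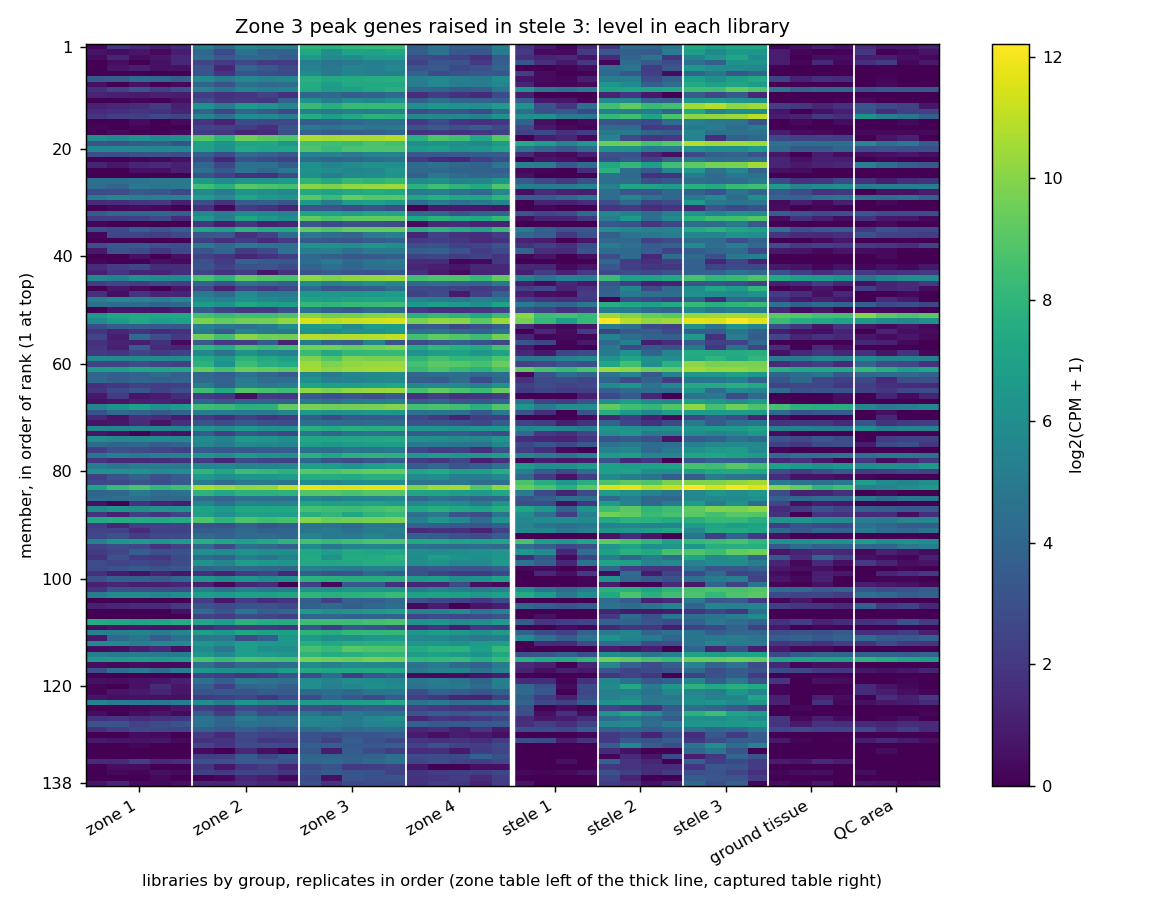
Level of each of the 138 members, as log2(CPM + 1), in all 40 libraries; rows are members in order of rank, columns are libraries by group, and brighter means higher. Zone 3 and stele 3 are the brightest blocks of their tables, zone 1, stele 1, ground tissue and the QC area are mostly dark, and zone 2, zone 4 and stele 2 are intermediate.

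The rule asked for zone 3 at 2 times each other zone or more, so the ratios and orders of zones that follow are a description. The median ratio of zone 3 to the next highest zone was 2.44, 30 members reached 3-fold and 8 reached 4-fold. The next highest zone was zone 2 for 76 members, zone 4 for 62 and zone 1 for 0, and zone 1 was the lowest zone for 120. In 120 of 138 members every zone 3 library lay above every library of the other zones. Over all 27767 genes that passed the filter on low counts in the zone table this share was 2.47%. The rule used that contrast, so nothing is read from the count.

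MA_9671g0010, first in the rank, had 0.160, 2.59, 1.55, 0.908 and 1.59 CPM in the zone 1 libraries and 33.4, 17.3, 48.2, 34.3 and 39.0 CPM in zone 2. It then had 246, 207, 257, 282 and 324 CPM in zone 3 and 11.3, 23.6, 11.0, 12.0 and 37.8 CPM in zone 4. No zone 3 library overlapped another zone, and the mean was 7.65 times that of zone 2. In the captured table it had 2.63, 0.808, 0.115 and 1.67 CPM in stele 1, 2.42, 17.3, 15.0 and 27.2 CPM in stele 2, and 172, 112, 146 and 156 CPM in stele 3. All ground tissue and QC area libraries held at most 1.75 CPM, and stele 2 replicate 1 fell below stele 1 replicate 1. Besides leading the rank, MA_9671g0010 stood farthest above the higher of steles 1 and 2, by 3.16 in log2(CPM + 1).

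MA_748060g0010, second in the rank, averaged 0.567 ± 0.270, 14.1 ± 5.92, 124 ± 34.1 and 16.3 ± 10.1 CPM in zones 1 to 4 (SD, n = 5 each). Its zone 3 libraries had 153, 66.5, 133, 125 and 144 CPM, with replicate 2 far below the other 4 and still above each library of the other zones. The captured levels were 3.04, 0.269, 0.231 and 3.48 CPM in stele 1, 8.37, 11.5, 9.91 and 31.9 CPM in stele 2, and 110.2, 51.4, 88.8 and 85.4 CPM in stele 3. The steles did not overlap, and ground tissue and the QC area held at most 2.79 CPM.

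MA_175978g0010, the most abundant member in zone 3, averaged 302 ± 117 CPM in zone 1, 1528 ± 439.9 in zone 2, 3377 ± 216 in zone 3 and 1089 ± 386 in zone 4 (SD, n = 5 each). Its captured libraries had 659, 422, 211 and 535 CPM in stele 1, 2972, 3525, 1826 and 2464 CPM in stele 2, and 4732, 2816, 4248 and 3103 CPM in stele 3. Ground tissue had 1014, 611, 246 and 357 CPM, and the QC area 39.0, 42.8, 64.6 and 98.6 CPM. Stele 3 and stele 2 overlapped, and ground tissue overlapped stele 1.

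MA_303487g0010, the second most abundant, averaged 109 ± 37.7, 856 ± 217, 2526 ± 348 and 1000.1 ± 305 CPM in zones 1 to 4 (SD, n = 5 each). Its stele 1 libraries had 814, 282, 115 and 288 CPM, those of stele 2 had 4456, 1931, 1163 and 1425 CPM, and those of stele 3 had 3359, 3069.6, 4454 and 3284 CPM. Replicate 1 was the highest library of steles 1 and 2, and stele 2 replicate 1 reached the top of stele 3.

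At the edge of the rule, MA_8732g0010 was just inside the zone limit, with 39.5 CPM in zone 3 and a ratio of 2.002 to zone 2. MA_8933673g0010 fell just outside with 146 CPM and a ratio of 1.9999. For the stele limit, MA_76403g0010 was just inside, with 1377 CPM in stele 3 and a ratio of 2.11 to the QC area. MA_70931g0020 was just outside with 5.21 CPM and a ratio of 1.81 to ground tissue. MA_76403g0010 was abundant outside the stele as well, with 565, 500.3, 377 and 395 CPM in ground tissue and 1064, 569, 446 and 535 CPM in the QC area.

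At the other extreme, 14 members had no count in any library of the QC area or ground tissue, and 5 of these also had none in zone 1. All 14 were below 100 CPM in zone 3. MA_9139695g0010 came close to these, with no count in zone 1, stele 1 or ground tissue and 3 counts in all in the QC area. It had 8.88, 0.940, 10.9, 6.18 and 3.69 CPM in zone 3. In stele 3 it had 14.9, 26.7, 7.65 and 0 CPM, so 1 of 4 stele 3 libraries had no count. Ground tissue was set to 3 counts in the whole group as a floor. The ratio of stele 3 to ground tissue was then 144 or more on counts pooled over libraries. The rule read that contrast, so nothing is read from this bound.

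Stele 2 against stele 1 is the contrast that the rule left unread, and the one that was tested. Of the 138 members, 113 were higher in stele 2 and 0 were lower by the quasi-likelihood test of edgeR, with p-values adjusted over 27239 genes (Benjamini-Hochberg) and a threshold of 0.05. Over all tested genes 12.4% were higher and 8.97% lower. The median log2 fold change was 2.89 over the 137 members tested, against -0.05 over all tested genes. With the 12 members that had no stele 1 count set to their bound against 3 counts, the median over all 138 was 2.83. The mean of stele 2 exceeded that of stele 1 in all 138 members, and 91 of the 113 differed at least 4-fold. These counts have no share over all genes beside them, so nothing is read from them. In 91 members no stele 2 library overlapped stele 1, against 9.06% of all tested genes.

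Since every fitted fold change was above 0, no member was lower at an unadjusted p under 0.05 either. DESeq2 also called 0 members lower and 116 higher. It called more genes in both directions, with 4062 of all 27239 genes (14.9%) higher and 3536 lower. Within lane 7, with 4 stele 2 and 2 stele 1 libraries, 55 of 138 members were higher and 0 lower, against 2% of 29947 genes higher and 0.177% lower. Lane 8 held no stele 2 library. With total counts as the scale 46.3% of all called genes were higher, against 58.0% with TMM, the trimmed mean scaling of the main test. Total counts moved the median of all genes to -0.22, and the members' median stood 2.96 above it, against 2.94 with TMM.

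**Figure D3:**
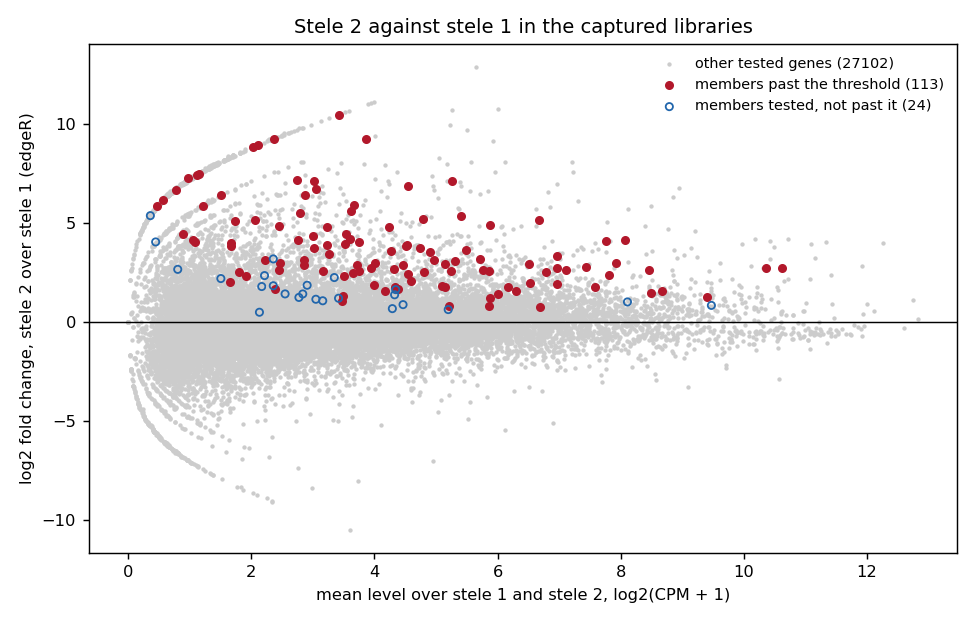
Log2 fold change of stele 2 over stele 1 from edgeR (vertical axis) against the mean level of both groups as log2(CPM + 1) (horizontal axis), 1 point per tested gene; grey points are other genes, red points the 113 members past the threshold and open blue points the 24 tested members that missed it. All members lie above 0, from 0.49 to 10.44, over the whole range of levels.

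Genes raised in stele 3 commonly were higher in stele 2 as well. Among the other 3511 genes that met the stele limits but not the zone limits, 2145 of the 3498 tested (61.3%) were higher in stele 2 than in stele 1 and 0 were lower. The 470 genes that peaked in zone 4 by the same limits and were raised in stele 3 had 280 of 464 tested (60.3%) higher. Members had 113 of 137 tested, or 82.5%. Of the 108 genes with a zone 3 peak that missed the stele limits, 50 passed the filter on low counts and 18 of these were higher. The differences between these shares were not tested. Of these 108 genes, 97 had under 5 CPM in stele 3 and 91 had under 5 CPM in all captured groups.

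Among called members whose libraries did not overlap, and whose mean over steles 2 and 1 reached 10 CPM, the 2 largest rises belonged to genes with few counts in stele 1. MA_10427673g0020 had 75.7, 15.6, 10.1 and 6.95 CPM in stele 2, against 0, 0, 0 and 0.129 CPM in stele 1, where it had 1 count. That is a ratio of 731 with an exact 95% counting interval of 131 to 28884 (adjusted p = 9.81e-05 by edgeR). The interval covers counting error only. The groups did not overlap, but stele 2 replicate 1 held 688 of the 1050 stele 2 counts. Without that library the fitted log2 fold change was 7.97. In stele 3 the gene had 21.2, 35.2, 36.7 and 4.36 CPM, all below stele 2 replicate 1, and all but the last above the other stele 2 libraries.

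MA_114349g0010 had 219, 19.3, 9.54 and 48.0 CPM in stele 2, against 0.203, 0.135, 0 and 1.93 CPM in stele 1. Its log2 fold change was 7.11 ± 1.21 (SE, adjusted p = 0.000801 by edgeR), higher in 4 of 4 libraries. Of its 17 stele 1 counts, 15 lay in replicate 4, and without that library the log2 fold change was 9.53. Of its 2778 stele 2 counts, 1988 lay in replicate 1, and without that library it was 5.68. Stele 3 had 89.6, 23.2, 51.6 and 13.6 CPM, within the range of stele 2, and the QC area had no count.

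No member fell in stele 2, so the rule for naming genes gave none on that side. The 24 tested members that missed the threshold had log2 fold changes of 0.49 to 5.36. MA_76403g0010 was among them, with 1363, 950.2, 644 and 540.4 CPM in stele 2 and 1141, 342, 406 and 291 CPM in stele 1, a log2 fold change of 0.83 ± 0.38 (SE, adjusted p = 0.129 by edgeR). Without stele 1 replicate 1, the highest stele 1 library, it was 1.49 ± 0.32 (SE, adjusted p = 0.0028 by edgeR). MA_9139695g0010 also missed the threshold, with 16, 6, 0 and 0 counts in the stele 2 libraries and none in stele 1. With stele 1 set to that floor, the ratio of counts pooled over libraries was 5.10 or more (adjusted p = 0.139 by edgeR). This bound does not hold for each library, since stele 2 replicates 3 and 4 had no count either. The member not tested, MA_42210g0010, failed the filter on low counts, with 26 counts in stele 2 and none in stele 1.

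Both most abundant members were called. MA_175978g0010 had a log2 fold change of stele 2 over stele 1 of 2.71 ± 0.45 (SE, adjusted p = 0.000509 by edgeR), and MA_303487g0010 of 2.72 ± 0.51 (SE, adjusted p = 0.00118 by edgeR). For MA_303487g0010 it was 3.43 without stele 1 replicate 1, and within lane 7 it was 2.18 and missed the threshold. MA_8732g0010, at the zone limit, had 50.3, 56.4, 19.3 and 35.0 CPM in stele 2, against 2.23, 3.64, 2.08 and 4.64 CPM in stele 1. Its log2 fold change of 3.82 ± 0.36 was over 10 times its SE (adjusted p = 5.32e-06 by edgeR). MA_15276g0010, chosen after its values were seen, had 4.25, 5.12, 8.31 and 6.95 CPM in stele 1, 148, 360.2, 63.3 and 212 CPM in stele 2 and 1078, 839.8, 863 and 825 CPM in stele 3. All 3 steles were apart for that gene, with a log2 fold change of 5.15 ± 0.54 between steles 2 and 1 (SE, adjusted p = 1.03e-05 by edgeR).

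**Figure D4:**
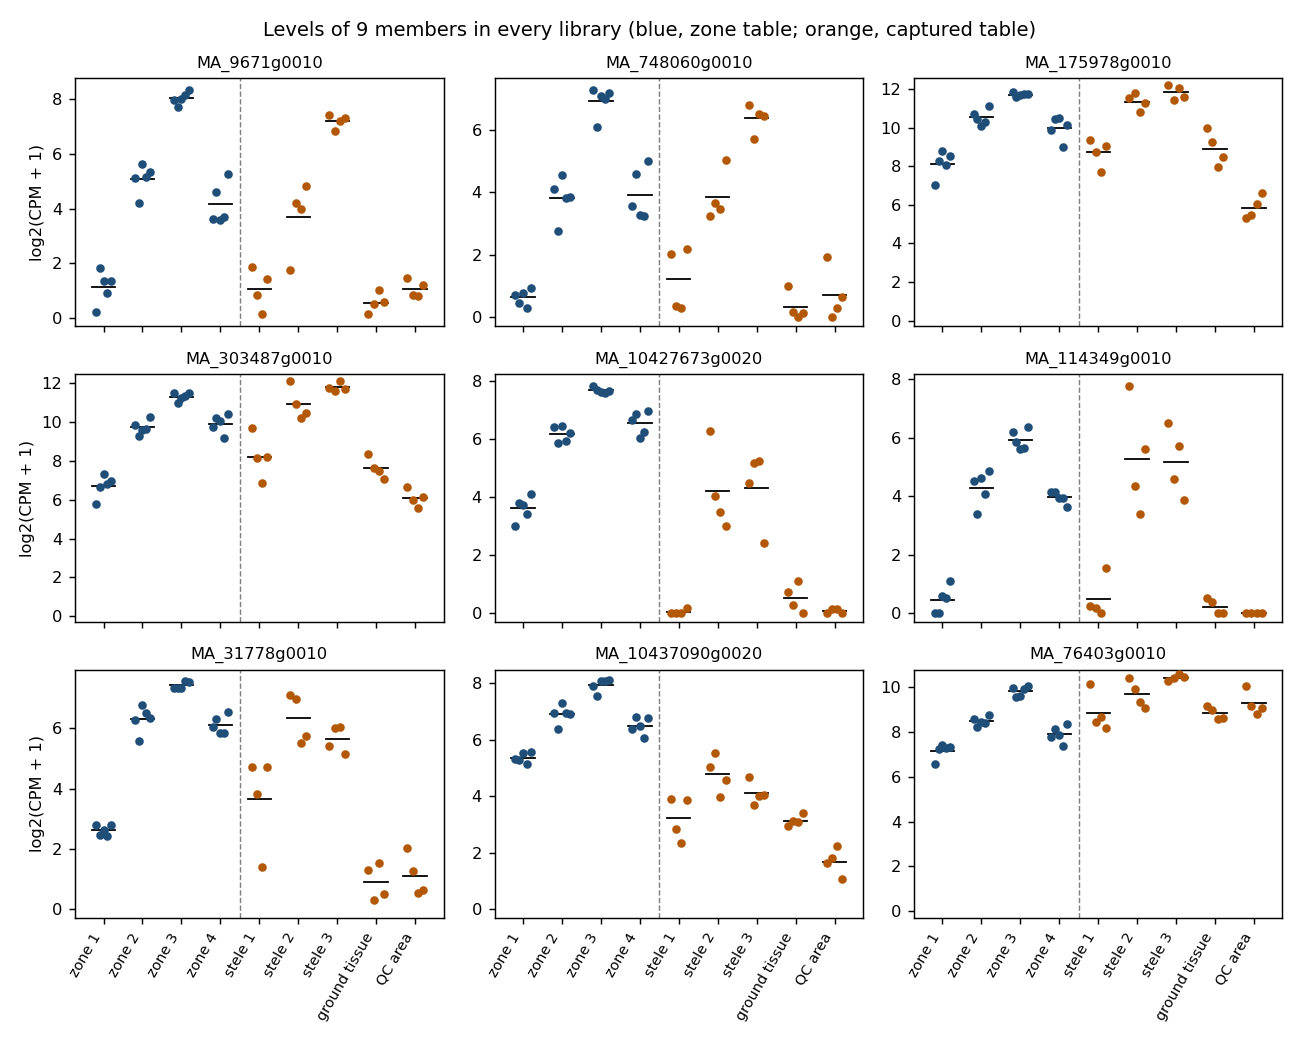
Levels of 9 named members in every library as log2(CPM + 1); points are libraries, blue for the zone table and orange for the captured table, and black lines are group means of the plotted values. MA_9671g0010 and MA_748060g0010 are highest in zone 3 and stele 3, and MA_10427673g0020 and MA_114349g0010 overlap between steles 2 and 3. Among the captured groups, MA_31778g0010 and MA_10437090g0020 are highest in stele 2.

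Stele 3 was the highest captured group for 125 members and stele 2 for 13. Because the rule asked for a high stele 3, comparisons with it are given without a test. In those 125 members stele 1 had the lowest mean of the steles and stele 2 the middle one. On the log2(CPM + 1) scale, which understates differences of low genes, the step between steles 1 and 2 was larger than the step between steles 2 and 3 in 113 of 138. Stele 3 was at least 2 times both other steles in 75 members. Neither count has a share over all genes beside it, and the rule read stele 3, so nothing is read from them. All stele 3 libraries lay above all stele 2 libraries in 50 members, against 4.23% of tested genes. Within lane 7, with 3 stele 3 and 4 stele 2 libraries, this held for 56 members, against 5.88% of tested genes. All stele 3 libraries lay above all stele 1 libraries in 123 members, against 14% of tested genes.

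In the 13 members with their highest mean in stele 2, the libraries of steles 2 and 3 overlapped each time. MA_31778g0010 was the one farthest towards stele 2, with 138, 124, 44.4 and 52.9 CPM there and 41.5, 63.0, 64.5 and 34.6 CPM in stele 3. MA_10437090g0020 had 31.7, 45.3, 14.8 and 22.7 CPM in stele 2 and 24.8, 12.1, 15.3 and 15.6 CPM in stele 3. Both had their next highest zone in zone 2, as did 10 of these 13 members and 66 of the 125 highest in stele 3. These groupings used means that the rule read, so nothing is read from the counts.

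The relations that follow use zones 2, 3 and 4 and stele 3, which the rule read. No such relation over all genes stands beside them, so they are a description and nothing is read from them. Across the 138 members the log2(CPM + 1) difference of zone 2 minus zone 4 and that of stele 2 minus stele 3 had a Spearman rho of 0.31. For the 76 members next highest in zone 2 the median of stele 2 minus stele 3 was -0.75, and for the 62 next highest in zone 4 it was -1.31. Stele 2 was called higher than stele 1 in 63 of the 76 tested members of the first kind and in 50 of the 61 of the second. The points share their libraries and are genes, not replicates, so no p is given. Levels in zone 3 and stele 3 had a rho of 0.60, and gene length is common to both.

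Zone 3 and stele 3 levels could still be far apart. The tables were scaled separately and their RNA was extracted differently, so the ratio of a zone to a captured group was not tested. Stele 3 exceeded zone 3 in CPM in 60 members, 55 members lay within 2-fold, and 14 had over 10 times more CPM in zone 3 than in stele 3. That is 10.1% of the members, against 185 (1.75%) of all 10559 genes with at least 5 CPM in both groups. The rule read both means and asked for a peak in zone 3, so nothing is read from this difference. The 14 had 92.0 to 1872 CPM in zone 3 and 5.68 to 48.5 CPM in stele 3.

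The 3 genes of this kind that follow were chosen after their values were seen. MA_9754208g0010 was the third most abundant member, with 1840.1, 1719, 1809, 1828 and 2163 CPM in zone 3. Its stele 3 libraries had 92.3, 2.45, 35.7 and 11.3 CPM, those of stele 2 had 45.3, 19.5, 13.9 and 12.5 CPM, and stele 1, ground tissue and the QC area stayed at or below 4.95 CPM. MA_5197g0010 had 1651, 1472, 1631, 1583 and 1825 CPM in zone 3 and 41.6, 2.13, 12.2 and 17.7 CPM in stele 3. MA_42210g0010 had 373, 288, 518, 457 and 448 CPM in zone 3 and 14.5, 1.31, 5.95 and 0.985 CPM in stele 3. In all 3 genes stele 3 replicate 1 was the highest stele 3 library, and the lowest zone 3 library lay above every stele 3 library.

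Together the 14 members summed to 398, 173, 276 and 273 CPM in the stele 3 libraries, to 249.9, 205, 126 and 123 CPM in stele 2, and to at most 86.0 CPM in any other captured library. The other 124 members summed to 29898, 26450, 31186 and 29936 CPM in stele 3. Stele 3 replicate 1, the single stele 3 library in lane 8, was the highest stele 3 library for 7 of the 14 and for 37 of the 124. Without it, 12 of the 14 and 121 of the 124 still met the rule. The part of lane or of neighbouring tissue in these levels was not tested.

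**Figure D5:**
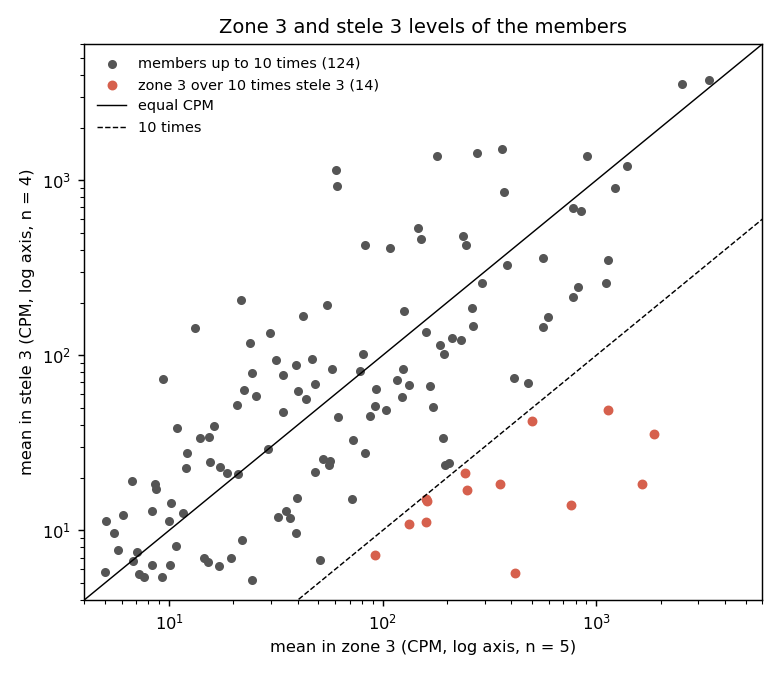
Mean CPM of each member in stele 3 (vertical log axis, n = 4) against zone 3 (horizontal log axis, n = 5); the solid line marks equal CPM and the dashed line zone 3 at 10 times stele 3. The 14 members below the dashed line (red) have 92.0 to 1872 CPM in zone 3 and at most 48.5 CPM in stele 3.

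In several groups many members were lowest or highest in the same library. In zone 2, replicate 2 was the lowest library for 103 of 138 members (74.6%, against 24.0% of all tested genes), and in zone 3 replicate 2 was lowest for 88 (63.8%, against 25.2%). In zone 4, replicate 4 was lowest for 70 members (50.7%, against 18.1%) and replicate 5 highest for 74 (53.6%, against 22.5%). Stele 2 replicate 3 was lowest for 68 members (49.3%, against 16.8%). Stele 1 replicate 1 was highest for 70 (50.7%, against 32.4%) and replicate 3 lowest for 69 (50.0%, against 20.9%). Stele 3 was more even. No stele 3 library was lowest for more members than replicate 2, with 46 (33.3%, against 14.9%). None was highest for more than replicate 1, with 44 (31.9%, against 20.3%). Members are not replicates of each other, and no test was made of these shares. Zone 3 replicate 2 was the smallest zone 3 library, with 4.25 M counts against 4.53 to 6.08 M in the others, and stele 1 replicate 3 was the largest stele 1 library, with 8.66 M against 4.94 to 7.77 M. Stele 1 replicate 1 and stele 3 replicate 2 were the smallest of their groups, with 4.94 and 6.11 M. Zone 2 replicate 2 had 5.54 M, and zone 4 replicates 4 and 5 had 4.93 and 4.74 M. Stele 2 replicate 3 had 10.8 M and stele 3 replicate 1 had 6.56 M. None of these other libraries was the smallest or largest of its group. The part of library size in these shares was not tested.

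The spread between libraries depended on the group. Among members with at least 5 CPM in a group, the median coefficient of variation was 17.6% in zone 3 (138 members), 57.9% in stele 1 (58), 49.5% in stele 2 (115) and 34.4% in stele 3 (138). All tested genes at that level had 15.9%, 26.6%, 32.9% and 28.3% in the same groups.

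Some members had IDs that differ only in the number after the letter g. This was so for 8 members, in 4 pairs, and the first part of such an ID is shared by genes of 1 stretch of assembled sequence. MA_9244g0010 and MA_9244g0020 had 475 and 306 CPM in zone 3 replicate 2, against 794 to 919 and 504 to 636 CPM in the other zone 3 libraries. Both were low in the same zone 3 library, and among the zone 2 libraries both were highest in replicate 3, at 239 and 149 CPM. In steles 2 and 1 MA_9244g0010 averaged 88.5 ± 33.2 and 37.8 ± 13.2 CPM (SD, n = 4 each). The log2 fold change was 1.39 ± 0.25 (SE, adjusted p = 0.00088 by edgeR). For MA_9244g0020 it was 0.87 ± 0.37 (SE, adjusted p = 0.104 by edgeR).

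MA_10427500g0020 and MA_10427500g0030 are another such pair. In stele 2 the first had 106, 69.7, 44.7 and 26.1 CPM and the second 54.7, 37.5, 24.6 and 11.5 CPM, in the same order of libraries. In stele 1 they had 33.6, 5.66, 1.39 and 6.05 CPM and 15.4, 3.10, 0.577 and 3.73 CPM, with replicate 1 high and replicate 3 low in both. Their log2 fold changes of stele 2 over stele 1 were 2.56 ± 0.70 and 2.66 ± 0.69 (SE, adjusted p = 0.0134 and 0.0101 by edgeR). Without stele 1 replicate 1 they were 3.94 and 3.82. Neither passed with only steles 1 and 2 in the fit, nor within lane 7.

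MA_10432600g0010 and MA_10432600g0020 differed in level, with 21.1 ± 3.14 and 133 ± 12.9 CPM in zone 3 (SD, n = 5 each). Their log2 fold changes of stele 2 over stele 1 were 1.04 ± 0.34 and 2.08 ± 0.38 (SE, adjusted p = 0.0356 and 0.000966 by edgeR). The call of MA_10432600g0010 was lost under 10 of 16 alternatives. The fourth pair, MA_963g0010 and MA_963g0020, had 52.3 and 9.98 CPM in zone 3 and 25.6 and 11.3 CPM in stele 3. Genes with near-identical copies may share or lose reads, and it is not known how the counting treated them.

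Genes that share the first part of their ID with a member but are not members number 21, of which 10 passed the filter in both tables. Of these 10, 7 were highest in zone 3, 5 were highest in stele 3 and 4 in both. Over all 23730 genes tested in both tables the shares were 13.6%, 21.7% and 6.69%. MA_10427673g0010, which shares this part with MA_10427673g0020, had 220.2 CPM in zone 3, 29.7 CPM in stele 2, 11.6 CPM in stele 3 and no count in stele 1. MA_10437001g0020 peaked in zone 4 with 138 CPM, against 104 CPM in zone 3, and had 164 CPM in stele 3. Both were chosen after their values were seen, and the shares were not tested.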

How the data were processed

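RNA of zone segments was taken out by a chloroform and isoamyl alcohol step and an RNeasy column, and RNA of captured regions by the RNAqueous-Micro kit, per the labels' protocols. Trimmomatic, STAR and HTSeq were used, per the submitters' processing notes; their versions, the genome build and the strandedness were not given in the sources used here. The deposited values are raw read counts per gene in 1 table of 20 zone libraries and 1 of 20 captured libraries. Stele columns, named by a number and a letter, were assigned by elimination, since the other captured columns name their tissue.

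CPM is a count scaled by its column total. Stele 2 was tested against stele 1 with edgeR 4.0.16 in R 4.3.3: filterByExpr, TMM, glmQLFit on all captured groups, glmQLFTest, Benjamini-Hochberg adjustment. DESeq2 1.42.0 served as an alternative, and the edgeR steps were first tested on simulated data. The SE is the log2 fold change over the square root of F. Between any 2 replicates chi-square per gene was at least 1.90, so none were merged.

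The members and lists were chosen with earlier results of these data known. The genes named are the first 2 by rank, the 2 largest rises and falls of stele 2 over stele 1 (at least 10 CPM, no overlap), the 2 most abundant in zone 3, the 2 highest and 2 lowest in stele 3 over steles 1 and 2, those at the limits, and members of up to 3 shared ID fronts; others are said to be chosen after their values were seen. Marker and pathway lists by product name were not applied. Counts limit precision most where a group has few reads.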

Additional observations from a re-analysis of the deposited data

Results flagged for a closer look

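In 171 checks of a group's highest and lowest library against the others (Dixon's criterion at the 95% level), 10 libraries stood apart. Chance alone flags about 1 in 20 groups. Zone 3 replicate 2 was low for MA_748060g0010, at 66.5 CPM against 125 to 153 CPM, and for MA_9244g0010, at 475 CPM against 794 to 919 CPM. Zone 2 replicate 2 was low for MA_10427500g0020, at 153 CPM against 228 to 236 CPM, and zone 3 replicate 3 was low for that gene, at 415 CPM against 483 to 508 CPM. Zone 1 replicate 1 was low for MA_76403g0010, at 92.5 CPM against 148 to 168 CPM.

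The other 5 stood out through few reads. MA_748060g0010 had 0.991 CPM in ground tissue replicate 1, against at most 0.107 CPM in the others. MA_10427673g0020 had 0.129 CPM in stele 1 replicate 4, MA_9139695g0010 had 0.342 CPM in QC area replicate 2, MA_10427500g0030 had 0.116 CPM in QC area replicate 1 and MA_10427500g0020 had 0.228 CPM in QC area replicate 2, with no count in the other libraries of each group.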

How the results depend on the processing

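The rule gave 138 genes, 176 with TMM-scaled CPM and 198 with DESeq2 size factors, each set holding all 138, and 109 with a minimum of 10 CPM. With 3-fold limits it gave 30. Leaving out 1 library gave 122 to 152 genes.

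The number of members higher in stele 2 than in stele 1 was 113, and 98 to 117 without 1 library. It was 112 with the replicate block, 104 with lane as a covariate, 84 with steles 1 and 2 alone, and 55 within lane 7. Of all tested genes 11.8%, 9.5%, 7.6% and 2% were higher under these settings, in the same order. The filter kept 27239 genes under the block and lane settings, 22663 with steles 1 and 2 alone and 29947 within lane 7. No alternative called a member lower, and the members' median log2 fold change ran from 2.58 to 3.39. Over all tested genes, 3378 were higher and 2444 lower. With steles 1 and 2 alone these were 1723 and 911, within lane 7 600 and 53, and 1568 were lower with lane as a covariate. Without 1 library 2254 to 3671 were higher and 1473 to 2948 lower, the lowest without stele 1 replicate 3. The main test did not pair steles 2 and 1 by replicate number. Correlations of same-numbered libraries ran from -0.0912 to 0.196, and 2 of 4 stele 2 libraries matched their own number best. With 4 libraries per group, these values cannot tell whether the libraries were paired. The cause of the differences between settings was not tested.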
